A study of Mus musculus with 6 samples.

Results

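The enzymes that make and salvage DNA precursors were followed in the mouse thymus after X-ray exposure. They were taken as 8 genes chosen by symbol, Rrm1, Rrm2, Rrm2b, Tyms, Tk1, Dut, Dck and Dctd, and each of the 8 matched 1 gene identifier among the 21954 genes of the mRNA table. The study compared thymus tissue of C57BL wild-type mice aged 5 weeks, 3 controls given no irradiation and 3 mice given 6 Gy of X-rays, with tissue taken after 24 h. Both groups carry no transgene or other treatment in the labels. Polyadenylated RNA of the whole organ was sequenced, and levels are FPKM as deposited, fragments scaled to transcript length and library depth, so that levels of different genes may be set side by side. No label says which of the 3 mice of a group a library came from, and p-values therefore speak only of the spread among these libraries.

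Ribonucleotide reductase turns ribonucleotides into deoxyribonucleotides, the limiting step in making DNA precursors. Its large subunit is Rrm1, which pairs either with Rrm2, the small subunit made in S phase, or with Rrm2b, the small subunit known as a p53 target that serves resting and damaged cells. Thymidylate comes from dUMP through thymidylate synthase (Tyms), with dUMP supplied by the dUTPase Dut and the dCMP deaminase Dctd, or is salvaged from thymidine by the S phase kinase Tk1. Dck, the deoxycytidine kinase, phosphorylates deoxycytidine, deoxyadenosine and deoxyguanosine, and is known for its high activity in lymphoid tissue.

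By the smallest step between FPKM values, 1 fragment in a transcript of 1 kb was worth 0.0391 to 0.0456 FPKM, so depth was close to even over the libraries. Thymocyte genes marked the tissue in both groups, but at very different levels. The 10 T lineage markers summed to 1217 to 1451 FPKM in the controls and to 225 to 364 FPKM after irradiation, and all 10 fell. All 10 markers of double-positive thymocytes fell as well, from a summed 1920 to 2229 FPKM to 59.7 to 109 FPKM. Markers of other cells moved the other way, with summed macrophage markers going from 230 to 330 FPKM to 1603 to 1802 FPKM (10 of 10 rose), fibroblast markers from 71.0 to 94.6 FPKM to 697 to 757 FPKM (8 of 8 rose) and thymic epithelial markers from 137 to 173 FPKM to 525 to 981 FPKM (9 of 10 rose). Endothelial markers summed to 32.9 to 42.0 FPKM and then to 50.5 to 125 FPKM (7 of 8 rose), and B cell markers to 13.2 to 16.6 FPKM and then to 5.63 to 20.6 FPKM. Beside these counts, 42.4% of all genes tested were higher and 20.9% lower. Under quantile normalization 6 of the 10 epithelial and 6 of the 8 endothelial markers were higher. By that scaling 3501 of all 14001 genes were higher and 4403 lower. Under median-ratio scaling 7 and 7 of these markers were higher, beside 4594 higher and 4565 lower of 13922 genes. Of the 5 B cell markers 1, Cd79b, passed as lower (limma adjusted p = 0.0342), but not with a replicate block (limma adjusted p = 0.0648), nor without control replicate 1, 2 or 3 or irradiated replicate 3 (limma adjusted p from 0.0862 to 0.103), and 4 of 5 were lower under quantile normalization. Irradiated replicates 1, 2 and 3 differed among themselves in markers of red cells, muscle, airway and fat. Summed red cell markers were 1.18, 7364 and 1197 FPKM in them, against 51.3 to 139 FPKM in the controls. None of the 5 tested red cell markers passed, but without irradiated replicate 1 all 5 were higher (Hba-a1, limma adjusted p = 0.000262). Skeletal muscle markers summed to 4.30, 137 and 27.9 FPKM, airway epithelial markers to 46.4, 3310 and 47.2 FPKM and fat markers to 80.7, 1546 and 651 FPKM, against at most 6.46, 4.48 and 40.1 FPKM in any control. Irradiated replicate 2 was thus highest in all 4. The airway markers Scgb1a1 and Scgb3a2 and the red cell markers Hbb-bt and Slc4a1 were each at 0 in at least 1 library. In whole tissue, fewer cells of a type and less RNA per cell cannot be told apart, and the part that these markers have in the results below was not tested.

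After irradiation 6 of the 8 genes fell, Rrm1, Rrm2, Tyms, Tk1, Dut and Dck, and none rose (limma on log2(FPKM + 0.1), Benjamini-Hochberg adjusted p under 0.05 over all genes). Rrm2b and Dctd did not pass the test. Over all 14001 genes tested, 20.9% were lower and 42.4% higher by the same rule, 63.2% in all. Each of the 6 also had a log2 fold change of -1 or below, which with the same adjusted p held for 10.3% of all genes. Fold changes below are differences of mean log2 values, irradiated minus control, with their standard error (SE). The median log2 fold change of the 8 genes was -1.75, against 0.40 over all genes tested, so that relative to all genes the median was -2.15. Control and irradiated libraries did not overlap for 7 of the 8, as for 70.8% of all genes tested. For 6 of these the irradiated libraries were the lower ones (24.7% of all genes) and for 1, Rrm2b, the higher ones (46.1%). Summed over the 8 genes, the level was 309, 303 and 281 FPKM in control replicates 1, 2 and 3 and 84.5, 57.0 and 83.6 FPKM in irradiated replicates 1, 2 and 3.

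**Figure D1:**
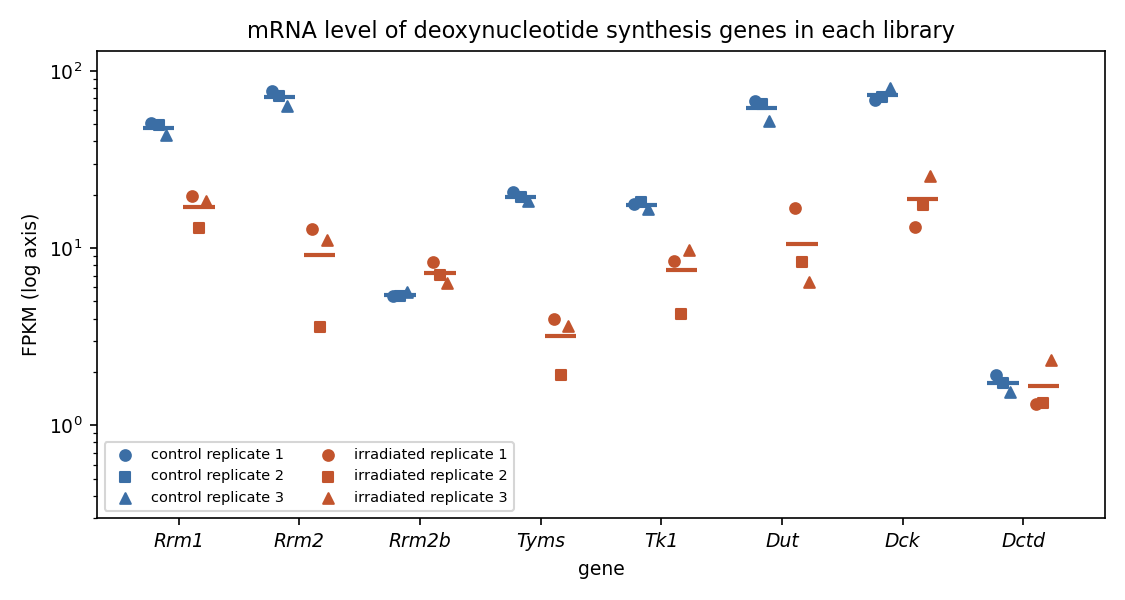
FPKM (log axis) of the 8 genes in each of 3 control and 3 irradiated libraries, with 1 point per library and a line at each group mean. The groups are apart for every gene but Dctd, and Rrm2 runs from 3.59 to 12.7 FPKM after irradiation.

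Promoter sequence was read for 7 of the 8 genes from RefSeq on build GRCm38.p6, in windows from 250 bases before to 50 after a transcription start. The 3 windows below belong to genes that fell together, both reductase subunits that fell and Tyms, and are printed 5′ to 3′ on the gene's own strand, with capitals for matches on either strand to a 7-letter E2F motif (TTCCCGC, or the same with GG, CG or GC in place of its first pair of C), to CCAAT and to the GC box GGGCGG.
Rrm1 (chr7:102441445-102441744, plus strand): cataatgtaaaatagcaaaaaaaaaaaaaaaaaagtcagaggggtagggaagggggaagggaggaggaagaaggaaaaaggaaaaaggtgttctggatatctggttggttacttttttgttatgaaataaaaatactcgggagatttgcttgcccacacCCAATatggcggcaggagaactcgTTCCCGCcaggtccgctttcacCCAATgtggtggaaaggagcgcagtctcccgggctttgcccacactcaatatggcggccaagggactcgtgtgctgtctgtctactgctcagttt
Rrm2 (chr12:24708004-24708303, plus strand): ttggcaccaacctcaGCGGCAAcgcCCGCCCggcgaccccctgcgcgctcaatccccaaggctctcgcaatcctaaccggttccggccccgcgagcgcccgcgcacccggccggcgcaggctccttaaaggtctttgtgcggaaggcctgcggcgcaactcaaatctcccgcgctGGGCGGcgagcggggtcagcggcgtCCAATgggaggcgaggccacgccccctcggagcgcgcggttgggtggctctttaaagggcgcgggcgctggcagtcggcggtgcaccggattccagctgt
Tyms (chr5:30073576-30073875, minus strand): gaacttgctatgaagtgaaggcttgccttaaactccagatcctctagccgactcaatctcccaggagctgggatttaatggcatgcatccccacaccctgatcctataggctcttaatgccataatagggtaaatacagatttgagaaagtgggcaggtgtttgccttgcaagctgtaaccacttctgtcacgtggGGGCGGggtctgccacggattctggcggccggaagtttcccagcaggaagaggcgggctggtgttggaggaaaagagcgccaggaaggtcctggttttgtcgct

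Within these windows, Rrm1 had the E2F motif with its first base at -67 from the start and CCAAT at -91 and -45. Rrm2 had the E2F motif at -235 on the other strand, CCAAT at -50 and the GC box at -225 and -75. Tyms had only the GC box, at -54. The E2F motif was in Rrm1 and Rrm2 alone among the 7 genes, in 2 of their 9 windows. Over all genes 9.6% of 32851 windows held it, while 37.4% held CCAAT and 35.7% the GC box. The Dut window, chr2:125247265-125247564 on the plus strand, lies wholly inside the gene, which starts at 125247190. It holds no sequence before the gene's first base, so a missing match there says nothing of that sequence. The Tk1, Rrm2 and Dck windows and some Dctd windows were also set on starts inside the gene, for Rrm2 and Dck close to the gene's first base. GC boxes were in Dck, Dctd, Dut, Rrm2, Tk1 and Tyms. The longer E2F motif, the 7 letters with a further T in front, was in none of the 7 genes and in 2.3% of all windows. The motif TTTGAA, known from cell cycle promoters, was in Dck alone and in 17.9% of all windows. A match is a run of letters in a window and says nothing of binding.

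Rrm1, the large subunit of the reductase (ENSMUSG00000030978, chr7:102441695-102469771 on the plus strand), stood at 50.7, 49.5 and 43.5 FPKM in the 3 controls and at 19.8, 12.9 and 18.3 FPKM in the 3 irradiated libraries. The groups did not overlap, and irradiated replicate 2 was the lowest. The mean went from 47.9 ± 3.87 to 17.0 ± 3.62 FPKM (SD, n = 3 each), a log2 fold change of -1.51 ± 0.19 (limma adjusted p = 0.000546). Gene coordinates are those of GENCODE M21 on build GRCm38, and the match of deposited transcript coordinates to that annotation is given below. The authors' deposited table gives a log2 fold change of -1.74 with an adjusted p of 2.02e-07.

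Rrm2, the S phase small subunit (ENSMUSG00000020649, chr12:24708241-24714146, plus strand), fell furthest of the 8. It stood at 76.9, 72.2 and 63.5 FPKM in the controls and at 12.7, 3.59 and 11.1 FPKM after irradiation. All 3 irradiated libraries were far below the controls, with replicate 2 lowest again. The mean of 70.8 ± 6.79 FPKM became 9.13 ± 4.87 FPKM (SD, n = 3 each), which is 12.9% of the control mean. The log2 fold change was -3.13 ± 0.44 (limma adjusted p = 0.000956), lower than in all but 1.14% of the genes tested. Without irradiated replicate 2 it was -2.56 (limma adjusted p = 0.000297).

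Rrm2b, the other small subunit (ENSMUSG00000022292, chr15:37923952-37961318, minus strand), did not pass the test. It stood at 5.34, 5.35 and 5.66 FPKM in the controls and at 8.31, 7.04 and 6.37 FPKM after irradiation. Each irradiated library was above each control, with means of 5.45 ± 0.180 and 7.24 ± 0.987 FPKM (SD, n = 3 each). The log2 fold change of 0.40 ± 0.16 missed the threshold (limma adjusted p = 0.0628), with a 95% confidence interval of 0.02 to 0.77 before adjustment. Its value lay at percentile 49.9 of all genes, and its distance to the median of all genes was -0.01. Scaling decides its sign, since quantile normalization gave -0.12 (limma adjusted p = 0.624) and median-ratio scaling 0.02 (limma adjusted p = 0.941), with the distance to the all-gene median between -0.05 and 0.01 over the 4 scalings. The call passed without irradiated replicate 3, at 0.48 (limma adjusted p = 0.0485). In the authors' deposited table Rrm2b has a log2 fold change of 0.23 and an adjusted p of 0.667.

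Among other known p53 targets, 8 of 10 rose (80.0%) and none fell, beside 42.4% higher and 20.9% lower over all genes. Their median log2 fold change was 2.08. Mdm2 and Sesn1 did not pass, at 0.161 and 0.225 (limma adjusted p = 0.354 and 0.685), both below the 0.395 of Rrm2b. Without irradiated replicate 1, Sesn1 passed as lower (-0.367, limma adjusted p = 0.0317). The cell cycle inhibitor Cdkn1a went from 3.57 ± 0.265 to 131 ± 60.2 FPKM (SD, n = 3 each; log2 fold change 5.04 ± 0.36, limma adjusted p = 8.27e-05), and Phlda3, which restrains AKT signalling, stood at 7.35 ± 0.819 FPKM before and 82.4 ± 15.4 FPKM after. Relative to the mean log2 level of these 10 genes, Rrm2b was at -0.38, -0.34 and -0.27 in the controls and at -1.88, -2.29 and -2.55 after irradiation. The difference of -1.91 left no overlap between the groups, and the exact two-sided permutation p was 0.1, the smallest that 3 against 3 libraries allow, or 0.153 adjusted over the 23 ratios computed.

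The balance of the reductase subunits moved by more than the spread between libraries. In the controls Rrm2 was 14.4, 13.5 and 11.2 times as abundant as Rrm2b, and after irradiation 1.53, 0.510 and 1.73 times. Rrm2b made up 6.50, 6.90 and 8.18% of the summed small subunits in the controls, against 39.5, 66.2 and 36.6% after irradiation. In irradiated replicate 2, the library with the lowest Rrm2, Rrm2b was thus the more abundant of the pair. These are ratios within a library, so no scaling between libraries enters them.

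Rrm2 was also lower relative to Rrm1. Their ratio was 1.52, 1.46 and 1.46 in the controls and 0.645, 0.278 and 0.603 after irradiation, a difference of -1.62 on the log2 scale, and -1.24 without irradiated replicate 2. Both small subunits together stood to Rrm1 as 1.62, 1.57 and 1.59 in the controls, and as 1.06, 0.823 and 0.951 after irradiation. Rrm2b was higher relative to Rrm1 by 1.90 and relative to Rrm2 by 3.52 on the log2 scale, the latter 2.97 without irradiated replicate 2. None of these ratios overlapped between the groups, and each had the exact permutation p of 0.1 (0.153 adjusted over 23 ratios), below which this design cannot go. Of the 23 ratios 15 did not overlap.

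**Figure D2:**
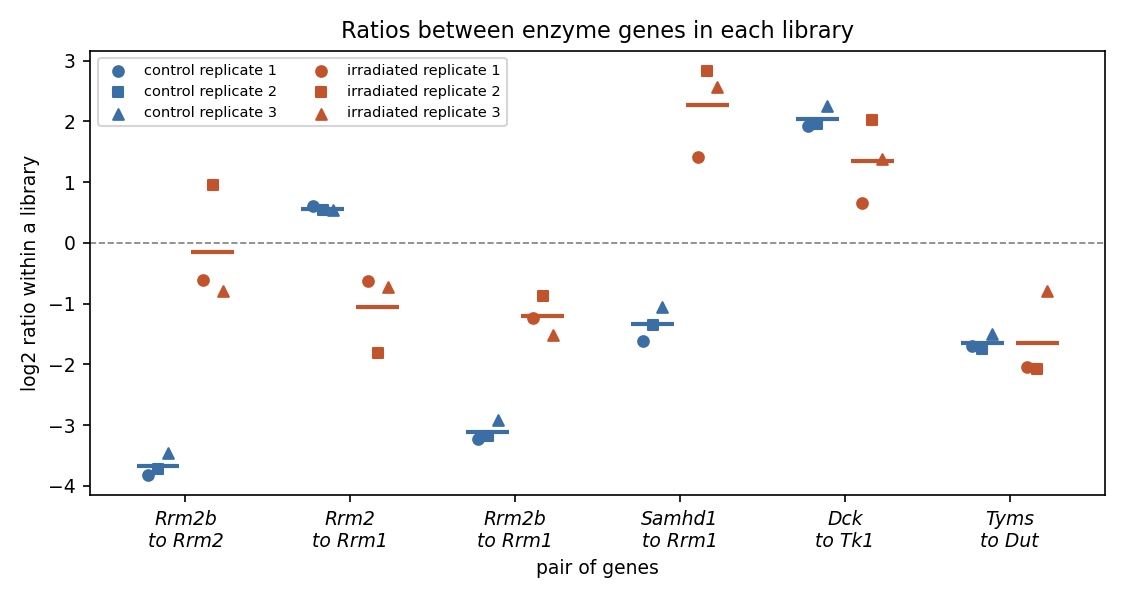
Log2 ratios between pairs of genes in each library, with 1 point per library and a line at each group mean. The ratios of Rrm2b to Rrm2, Rrm2 to Rrm1, Rrm2b to Rrm1 and Samhd1 to Rrm1 are apart between the groups, while Dck to Tk1 and Tyms to Dut overlap.

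In the thymidylate branch, Tyms, which methylates dUMP to dTMP (ENSMUSG00000025747, chr5:30058202-30073617, minus strand), was at 20.7, 19.4 and 18.4 FPKM in the controls and at 3.98, 1.91 and 3.63 FPKM after irradiation. The groups were far apart, with means of 19.5 ± 1.14 and 3.17 ± 1.11 FPKM (SD, n = 3 each). The log2 fold change was -2.65 ± 0.27 (limma adjusted p = 0.000267), the smallest p of the 8 genes. In the authors' deposited table it is -2.82, with an adjusted p of 3.74e-13.

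Dut, which hydrolyses dUTP to dUMP and keeps uracil out of DNA (ENSMUSG00000027203, chr2:125247190-125258608, plus strand), was at 67.3, 65.4 and 52.3 FPKM in the controls and at 16.8, 8.39 and 6.39 FPKM after irradiation. Here irradiated replicate 3 was the lowest, not replicate 2, and the groups did not overlap. The mean fell from 61.7 ± 8.15 to 10.5 ± 5.52 FPKM (SD, n = 3 each), with a log2 fold change of -2.65 ± 0.34 (limma adjusted p = 0.000613). The Tyms to Dut ratio on the log2 scale was -1.70, -1.75 and -1.50 in the controls and -2.05, -2.08 and -0.80 after irradiation. The group means of this ratio differed by 0.01, and the irradiated libraries lay on both sides of the controls (exact permutation p = 1).

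Dctd, which deaminates dCMP to dUMP (ENSMUSG00000031562, chr8:48099092-48153233, plus strand), was the least abundant of the 8. Its values were 1.92, 1.72 and 1.55 FPKM in the controls and 1.31, 1.34 and 2.34 FPKM after irradiation. The third irradiated library was above all controls and the other two were below them. The log2 fold change was -0.10 ± 0.29 (limma adjusted p = 0.783), with a 95% confidence interval of -0.79 to 0.59. Under quantile normalization Dctd passed as lower, at -1.41 (limma adjusted p = 0.0166). Its estimated 68 to 120 fragments per library were the fewest of the 8 genes.

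Of the salvage kinases, Tk1, which phosphorylates thymidine in dividing cells (ENSMUSG00000025574, chr11:117815526-117826092, minus strand), fell least among the 6 with FPKM as deposited. Under quantile normalization Rrm1 fell less, at -1.64 against -1.72 for Tk1, and the difference between the 2 genes was not tested. Tk1 was at 17.8, 18.2 and 16.7 FPKM in the controls and at 8.40, 4.23 and 9.79 FPKM after irradiation. The groups did not overlap, and replicate 2 was again the lowest. The means were 17.6 ± 0.760 and 7.47 ± 2.90 FPKM (SD, n = 3 each), and the log2 fold change was -1.31 ± 0.30 (limma adjusted p = 0.0076). Without irradiated replicate 2 it was -0.94 (limma adjusted p = 0.00271).

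Dck (ENSMUSG00000029366, chr5:88764996-88783281, plus strand) had the highest group mean of the 8 in both groups, though Rrm2 was above it in control replicates 1 and 2 and Rrm1 and Dut in irradiated replicate 1. It was at 68.3, 71.0 and 79.9 FPKM in the controls and at 13.2, 17.6 and 25.7 FPKM after irradiation. The lowest library was irradiated replicate 1, and no irradiated library reached a control. The mean fell from 73.1 ± 6.07 to 18.8 ± 6.32 FPKM (SD, n = 3 each), to 25.8% of the control mean, with a log2 fold change of -2.00 ± 0.24 (limma adjusted p = 0.000486). The Dck to Tk1 ratio was 3.83, 3.91 and 4.78 in the controls and 1.58, 4.16 and 2.62 after irradiation, so the groups overlapped (log2 difference -0.69, exact permutation p = 0.3).

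The order of the 8 levels also changed. In the controls it ran Dck, Rrm2, Dut, Rrm1, Tyms, Tk1, Rrm2b and Dctd, and only the ranges of Dck and Rrm2 and of Rrm2 and Dut overlapped between neighbours. After irradiation it ran Dck, Rrm1, Dut, Rrm2, Tk1, Rrm2b, Tyms and Dctd. There the range of each neighbour overlapped the next except for Rrm2b and Tyms. Library by library, Rrm1 was above Rrm2 and Dut, and Tk1 above Tyms, in each irradiated library. In each control these pairs stood the other way. The order of Rrm2 and Dut, and of Tk1 and Rrm2b, differed between irradiated libraries. Rrm2b, which had been below Tyms in each control, was above it in each irradiated library.

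The direction of the 6 falls did not depend on how libraries were scaled. With FPKM as deposited, quantile normalization, median-ratio scaling and equal summed FPKM, Rrm1 ranged from -1.89 to -1.51, Rrm2 from -3.51 to -3.13, Tyms from -3.36 to -2.65, Tk1 from -1.72 to -1.31, Dut from -3.03 to -2.65 and Dck from -2.38 to -2.00 on the log2 scale, and each stayed past the threshold. Set against the all-gene median, the 6 lay between -3.53 (Rrm2) and -1.58 (Rrm1) under the 4 scalings. That median itself moved from 0.40 to -0.07, 0.01 and 0.30 under these scalings. The split of all genes moved with it, from 5933 higher and 2920 lower to 3501 and 4403 under quantile normalization and 4594 and 4565 under median-ratio scaling. When each library was left out in turn, 6 genes were lower each time.

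**Figure D3:**
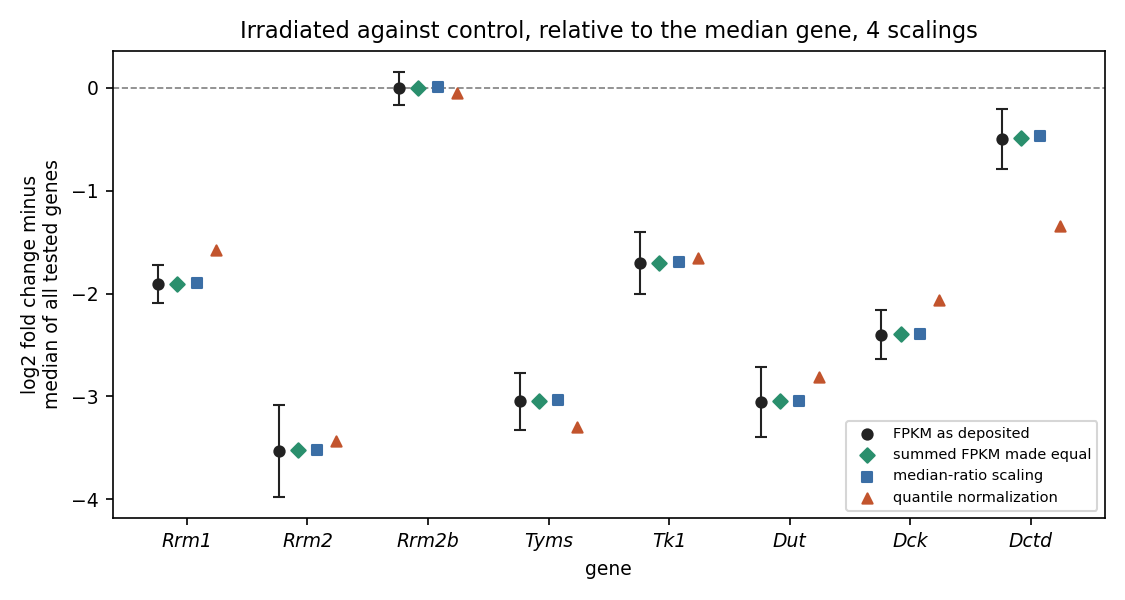
Log2 fold change of each of the 8 genes, irradiated minus control, after subtracting the median of all tested genes, with FPKM as deposited and under 3 other scalings (error bars, SE, drawn for the deposited scale only). Relative to the median gene, Rrm2 lies at -3.53 to -3.43, Tyms at -3.29 to -3.03 and Dut at -3.05 to -2.81, while Rrm2b lies at -0.05 to 0.01 and Dctd reaches -1.34 under quantile normalization.

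The 8 genes were then set against 2 reference lists in the same library. The S phase and mitosis reference, 12 genes of dividing cells, fell in all 12 members with a median log2 fold change of -2.55. Its replication genes Mcm2, Mcm3, Mcm5 and Mcm6 were at -2.02 to -1.76 and Pcna at -2.30. The others, Mki67, Top2a, Cdk1, Ccnb1, Ccna2, Cdc20 and Plk1, fell further, to between -3.67 and -2.43. Ratios to the replication genes alone were not formed, so the differences below refer to the mixed list. Relative to this reference the mean log2 ratios of Tyms and Dut differed by 0.00 and -0.00 between overlapping groups (exact permutation p = 0.9 and 1). Tyms was tight, at -1.24, -1.28 and -1.17 in the controls and -1.32, -1.23 and -1.13 after irradiation. Dut was not, at 0.46, 0.46 and 0.33 and then at 0.73, 0.85 and -0.33. With the median over the 12 genes in place of the mean, the difference for Tyms was -0.19. Dck was higher relative to the reference by 0.65, with overlap (exact permutation p = 0.4), and by 0.36 without irradiated replicate 2 and 1.12 without irradiated replicate 1.

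Rrm1 and Tk1 were higher relative to the S phase and mitosis reference after irradiation, by 1.14 and 1.34 on the log2 scale, with no overlap between the groups. Rrm2 was lower (difference -0.48), again with no overlap, and the difference was -0.23 without irradiated replicate 2. Rrm2b and Dctd were higher relative to the reference by 3.05 and 2.55. Each of these 5 ratios had the exact permutation p of 0.1 (0.153 adjusted), the floor of the design.

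Relative to the 10 T lineage genes, which fell with a median log2 fold change of -2.13, the same ratios were formed. Rrm1 and Tk1 were 0.67 and 0.87 higher and Rrm2 was lower (difference -0.95, and -0.57 without irradiated replicate 2), each with no overlap and an exact permutation p of 0.1. Tyms, Dut and Dck overlapped between the groups, with differences of -0.47, -0.47 and 0.18 (exact permutation p = 0.2, 0.3 and 0.8). With 1 library left out, the difference for Dck ran from -0.06 (without irradiated replicate 3) to 0.59 (without irradiated replicate 1), and that for Dut from -0.69 (without irradiated replicate 1) to -0.17 (without irradiated replicate 3). The 2 reference lists share libraries and the same numerators, so they are not separate evidence.

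**Figure D4:**
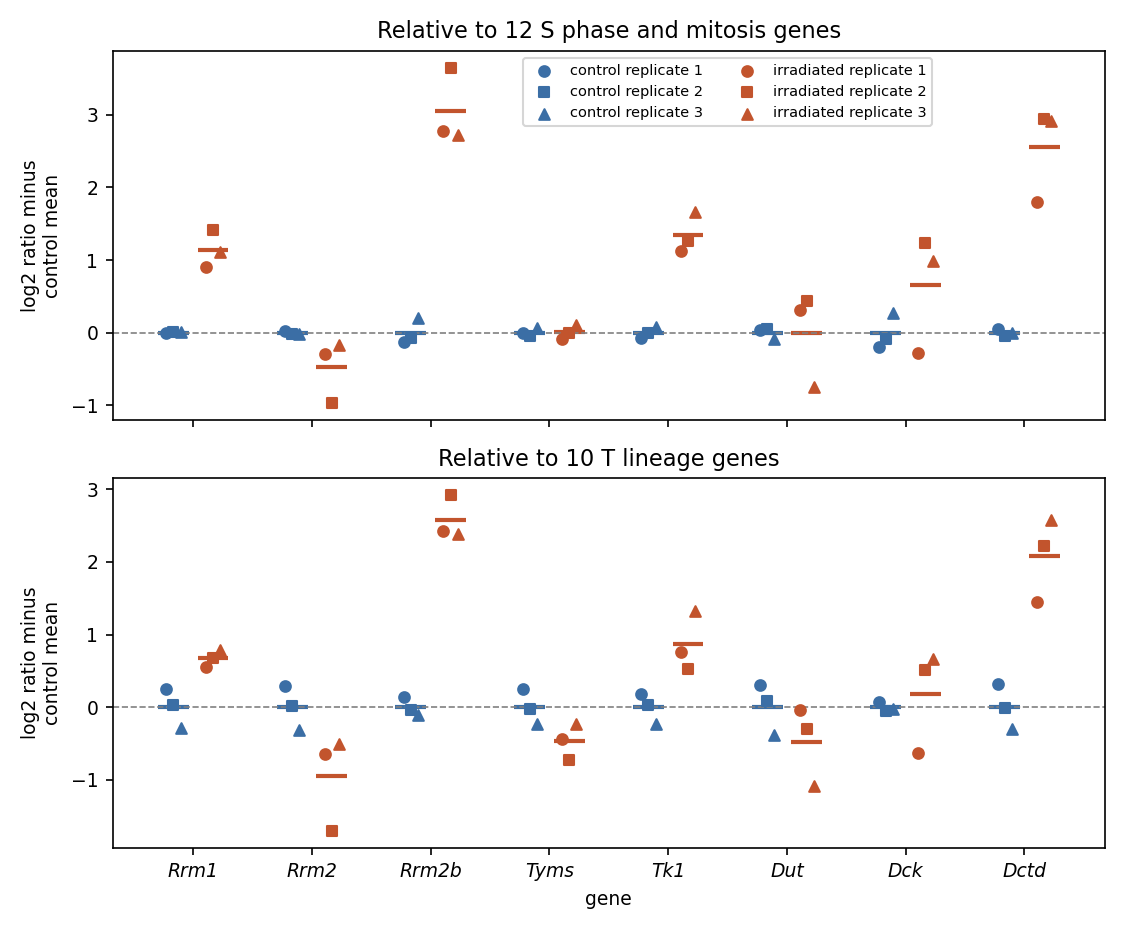
Log2 ratio of each gene to the mean of 12 S phase and mitosis genes (top) and of 10 T lineage genes (bottom) in each library, minus the control mean, with lines at group means. Tyms stays at the control level in the upper panel, Rrm2 is below it and Rrm1, Tk1, Rrm2b and Dctd are above it.

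The tested genes closest in profile to the reductase subunits were found by the root mean square difference of log2 levels over the 6 libraries, after centring each gene on its own mean. The nearest to Rrm1 were Nrf1, Suv39h1, E2f1, Rbm12 and Rcc1, at 0.06 to 0.07 against a median of 1.04 over 13506 genes. Nearest to Rrm2 were Dtl, Rad51ap1, Aunip, Birc5 and Hist1h2bh, at 0.17 to 0.19 against a median of 1.89. Rrm2b lay nearest to Herpud2, Kdsr, Csgalnact2, Ccni and Fam185a, at 0.03 to 0.06 against a median of 0.58. These are descriptions over 6 libraries that share 1 contrast.

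Noncoding transcripts of the same genes were mostly lower too. The lncRNA table lists 20 transcripts under the 8 genes, 17 retained introns and 3 processed transcripts, which overlap exons of the mRNA so that fragments may be shared. Summed per gene, they fell for 6 of the 7 genes that could be tested, and none rose, while 30.1% of the 9421 genes tested in that table were lower, 15.8% were higher and the median log2 fold change over them was -0.44. The Dck retained intron was at 5.98, 6.07 and 7.40 FPKM in the controls and at 0.832, 0.765 and 0.995 FPKM after irradiation, without overlap. Its log2 fold change was -2.77 ± 0.24 (limma adjusted p = 0.000193). The 3 Tyms transcripts went from 7.52 ± 0.779 to 1.14 ± 0.518 FPKM (SD, n = 3 each; -2.70 ± 0.31, limma adjusted p = 0.000594).

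The single Rrm2 and Dut transcripts fell by 2.49 and 2.55 on the log2 scale (limma adjusted p = 0.00122 and 0.00107), and the 4 of Rrm1 fell by 1.54 (limma adjusted p = 0.00694). The 6 Tk1 transcripts had a log2 fold change of -1.12 (limma adjusted p = 0.0249), a call that was lost under quantile normalization (-0.68, adjusted p = 0.0964), under median-ratio scaling (-0.69, adjusted p = 0.0834) and without control replicate 1, 2 or 3 (limma adjusted p = 0.0691, 0.0844 and 0.0534). The 2 of Rrm2b did not pass, going from 1.22 ± 0.126 to 0.923 ± 0.157 FPKM (SD, n = 3 each; limma adjusted p = 0.309). Those of Dctd were below the 0.5 FPKM needed for a test. Transcript by transcript, 11 of the 20 were lower, 5 did not pass and 4 were not tested, beside 24.6% lower over all 19247 transcripts tested.

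Around these enzymes lie 74 other genes of nucleotide metabolism, of which 73 were tested, and 17 rose (23.3%) and 21 fell (28.8%), with a median log2 fold change of -0.11. Over all genes tested 42.4% were higher and 20.9% lower, and the median was 0.40. Under quantile normalization 12 rose and 33 fell, and under median-ratio scaling 11 rose and 34 fell. The counts over all genes shifted too. Under quantile normalization 3501 of 14001 were higher and 4403 lower, and under median-ratio scaling 4594 of 13922 were higher and 4565 lower. The counts of single lists under these scalings, here and below, are to be read beside those all-gene counts. In the folate cycle, which feeds Tyms, 3 of 11 genes fell (27.3%) and 2 rose (18.2%), but 8 fell under quantile normalization and 6 under median-ratio scaling, with 1 higher under each. Shmt2, the mitochondrial serine hydroxymethyltransferase, fell by 0.71 (limma adjusted p = 0.00288), whereas cytosolic Shmt1 was at -0.40 (limma adjusted p = 0.0783) and passed under quantile normalization (-1.01) and median-ratio scaling (-0.78) and without irradiated replicate 1 (-0.45).

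Of the enzymes that carry monophosphates to triphosphates, 6 of 14 rose (42.9%) and 3 fell (21.4%), shares close to those over all genes (42.4% and 20.9%). Without control replicate 1, 2 or 3 the number higher was 2, 2 and 3, and under quantile normalization and median-ratio scaling only 2 rose while 5 and 4 fell. Dtymk, the thymidylate kinase that takes the product of both Tyms and Tk1, was at 58.4, 49.7 and 52.4 FPKM in the controls and at 25.5, 17.9 and 21.0 FPKM after irradiation. It fell by 1.32 ± 0.16 on the log2 scale without overlap (limma adjusted p = 0.000555), close to the change of Tk1. Ak6, an adenylate kinase, fell by 1.18. Ak1, a cytosolic adenylate kinase, rose from 0.268 ± 0.131 to 17.3 ± 11.3 FPKM (SD, n = 3 each; 5.26 ± 0.68, limma adjusted p = 0.000634), with 4.25, 24.5 and 23.2 FPKM in the irradiated libraries. Cmpk2, a mitochondrial kinase induced by interferon, was at 4.54, 18.9 and 44.2 FPKM after irradiation and 2.48 ± 0.426 FPKM before (2.62 ± 0.73, limma adjusted p = 0.017), and its call was lost under quantile normalization (limma adjusted p = 0.0642) and without control replicate 1 or 2 (limma adjusted p = 0.0558 and 0.054). Nme1, a nucleoside diphosphate kinase, was at 15.6 ± 0.444 and 14.0 ± 6.89 FPKM and did not pass (limma adjusted p = 0.471), but passed as lower without irradiated replicate 3 (-0.64, limma adjusted p = 0.0108).

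Of the 2 mitochondrial salvage kinases, 1 rose and none fell, beside 42.4% higher and 20.9% lower over all genes. Dguok, the deoxyguanosine kinase, was at 11.2, 11.2 and 11.8 FPKM in the controls and at 16.7, 18.0 and 18.0 FPKM after irradiation. It rose by 0.62 ± 0.12 on the log2 scale (limma adjusted p = 0.00349), a call lost under median-ratio scaling (0.23, adjusted p = 0.112). In the authors' deposited table Dguok has a log2 fold change of 0.356 and an adjusted p of 0.448. Tk2, the mitochondrial thymidine kinase, was at 8.13 ± 0.868 and 10.9 ± 2.89 FPKM (SD, n = 3 each) and did not pass (limma adjusted p = 0.132). Differences between these changes and those of Tk1 and Dck were not tested.

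Among 14 tested enzymes that degrade deoxynucleotides or clean the pool, 6 fell (42.9%) and 3 rose (21.4%), beside 20.9% lower and 42.4% higher over all genes. Under quantile normalization 7 were lower and under median-ratio scaling 9, with 3 higher under each. Samhd1, which cleaves dNTPs to deoxynucleosides and so opposes the reductase, was at 16.6, 19.2 and 20.9 FPKM in the controls and at 52.7, 92.5 and 109 FPKM after irradiation. It rose by 2.10 ± 0.27 on the log2 scale without overlap (limma adjusted p = 0.000654). Per library, Samhd1 to Rrm1 stood at 0.327, 0.389 and 0.480 in the controls and at 2.66, 7.16 and 5.94 after irradiation, a log2 difference of 3.61 (exact permutation p = 0.1, adjusted 0.153). Summed macrophage markers rose in the same libraries, as given above, and their part in the Samhd1 value was not tested.

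The nucleoside phosphorylases Pnp and Upp1 rose as well. Pnp, which splits purine nucleosides, went from 10.5 ± 0.941 to 38.6 ± 21.5 FPKM (SD, n = 3 each; 1.69 ± 0.44, limma adjusted p = 0.0127), and Upp1, which splits uridine, from 0.524 ± 0.184 to 5.96 ± 3.27 FPKM (3.13 ± 0.53, limma adjusted p = 0.00203). Ada, the adenosine deaminase whose loss depletes lymphocytes, fell from 16.9 ± 1.34 to 8.45 ± 0.671 FPKM (-0.99 ± 0.14, limma adjusted p = 0.000804). The pool-cleaning hydrolase Dctpp1, which removes modified dCTP, fell by 1.16 (limma adjusted p = 0.00273). Dnph1, which hydrolyses hydroxymethyl-dUMP, fell by 2.62 (limma adjusted p = 0.00124), and the nucleotidase Nt5c3b fell by 1.51 (limma adjusted p = 0.000306).

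Of the 5 genes that pass electrons to the reductase, 2 rose (40.0%) and none fell, a share close to the 42.4% higher over all genes. The 2 were Glrx, glutaredoxin, which rose by 1.32 (limma adjusted p = 0.0113), and Gsr, glutathione reductase, which rose by 1.17 (limma adjusted p = 0.00333). The counts were the same under the other scalings. Of all genes, 3501 of 14001 were higher under quantile normalization, 4594 of 13922 under median-ratio scaling and 5505 of 13975 with equal summed FPKM.

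Enzymes that build the base rings were counted apart for pyrimidines and purines. In the pyrimidine pathway 0 of 5 genes passed, beside 63.2% of all genes in either direction, and 1 and 2 fell under quantile normalization and median-ratio scaling. In the purine pathway 7 of 15 fell (46.7%) and 2 rose (13.3%), beside 20.9% lower and 42.4% higher over all genes. The number lower was 9 under quantile normalization and 11 under median-ratio scaling, and 4, 3, 10 and 4 without control replicate 1, control replicate 2, irradiated replicate 1 and irradiated replicate 2. Prps2, which makes the activated ribose for both pathways, fell from 52.6 ± 1.13 to 14.5 ± 2.86 FPKM (SD, n = 3 each; -1.87 ± 0.16, limma adjusted p = 0.000153). Ppat, which commits that ribose to purine synthesis, fell by 1.31 (limma adjusted p = 0.00181), and Impdh1, the enzyme that leads to guanine nucleotides, fell by 1.50 (limma adjusted p = 0.000809). Adssl1, an adenylosuccinate synthase of muscle, rose by 2.02 (limma adjusted p = 0.000394), with 8.29, 15.0 and 12.0 FPKM after irradiation and 2.75 ± 0.0148 FPKM before. The part of the summed muscle markers given above in the Adssl1 value was not tested. Among 7 genes of nucleoside uptake, 2 fell (28.6%) and 1 rose (14.3%), beside 20.9% lower and 42.4% higher over all genes. The uridine kinase Uck2 fell by 1.56 (limma adjusted p = 0.00151) and the lysosomal transporter Slc29a3 rose by 1.53 (limma adjusted p = 0.0038).

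**Figure D5:**
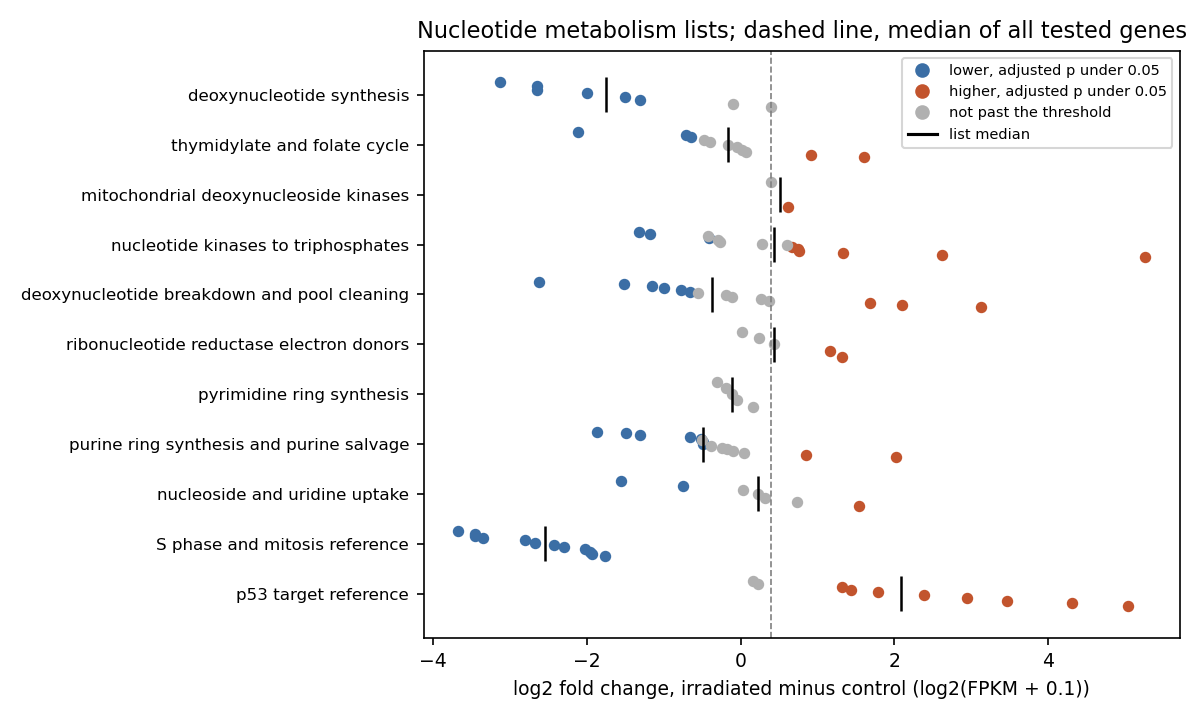
Log2 fold change of each tested gene on the log2(FPKM + 0.1) scale, irradiated minus control, with 1 point per gene grouped by list and coloured by its call, a bar at each list's median and a dashed line at the median of all tested genes (0.40). The 8 deoxynucleotide synthesis genes have a median of -1.75, the S phase and mitosis reference -2.55 and the p53 targets 2.08, while the other nucleotide lists have medians from -0.49 to 0.51.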

How the data were processed

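The authors deposited FPKM values per library for mRNA and lncRNA transcripts, with log2 fold changes and adjusted p-values. The submitters' processing notes name DESeq2 1.10.1. How fragments were aligned, counted and assigned to strands, and on which build, is not given in the labels used here. Transcript starts and ends equalled those of GENCODE M21 on GRCm38 for 99.79% and 99.91% of matched transcripts in the mRNA and lncRNA tables. All lines of an mRNA gene repeat 1 set of values, so 1 was kept. Of 53063 lncRNA lines, 62 held only overflow text and were dropped, and the rest were summed to genes.

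Genes averaging at least 0.5 FPKM were tested with limma 3.58.1 in R 4.3.3 on log2(FPKM + 0.1), with group as the only term, an abundance trend and Benjamini-Hochberg adjustment over each table alone. On the log2(FPKM + 0.1) scale, changes of low genes are understated. One fragment in 1 kb is worth 0.0391 to 0.0456 FPKM. On simulated data of 12533 genes, 37.2% of the 86 genes changed by 1 and 74.7% of the 95 changed by 2 on the log2 scale were recovered, with 1 false call. With so few changed genes the adjustment is stricter than in these data, where 63.2% of genes passed. The recovery rates and the false call therefore do not carry over to these data.

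Ratios were tested with exact two-sided permutation tests. Named genes are the 8 members, 11 preset pathway genes, list genes past the threshold with a log2 change of at least 1, up to 6 per direction and list by p, and the 5 nearest profiles of each reductase gene. Further list genes are named where they limit a count or describe a list. The members and lists were chosen with earlier results of these data known. Alternatives were pseudocounts of 1 and 0.01, other filters on low values, 3 other scalings, no abundance trend, a replicate block, leaving out each library, and the median of a reference list. Results for some listed genes are not reported here.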

Additional observations from a re-analysis of the deposited data

How the results depend on the processing

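The count of 6 lower genes among the 8 was unchanged under every alternative but quantile normalization, where Dctd made 7. The count of higher genes was 0, and 0 to 1 when 1 library was left out. Among the 8 genes and their noncoding transcripts, none past the test turned. Signs turned for Rrm2b under quantile normalization (-0.12), for Dctd without irradiated replicate 1 (0.039) or 2 (0.023; range over the libraries left out -0.36 to 0.039) and for the noncoding transcripts of Rrm2b under median-ratio scaling (0.035). Among pathway genes that had passed, Ak4 turned, to -0.35 under quantile normalization. With 1 library left out, 4 log2 ratio differences also took both signs, and in all 4 the groups overlapped. These were Dck to the T lineage reference (-0.06 to 0.59), Dut (-0.22 to 0.37) and Tyms (-0.04 to 0.05) to the S phase and mitosis reference, and Tyms to Dut (-0.42 to 0.22). Under quantile normalization 33 pathway genes and 4403 of all genes were lower and 3501 of all genes higher. Under median-ratio scaling 34 pathway genes and 4565 of all genes were lower, and 11 pathway genes higher. The cause was not tested. With 1 library left out, pathway genes higher numbered 13 to 19 and lower 15 to 25, all genes higher 4916 to 6730 and lower 2150 to 3466, and 5 to 6 of the 8 had lower noncoding transcripts.

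Replicate numbers are shared between the groups, but the labels do not say that they pair animals, and same-numbered libraries deviated together with r of 0.06, -0.04 and 0.05 across genes, so they were not taken as pairs. Not every library correlated best with its own number. With the replicate block, 6 of the 8 were lower and 0 higher, 16 pathway genes were higher and 19 lower, and 5693 of all genes were higher and 2662 lower. Depth limits Dctd most, at 68 to 120 estimated fragments. Ratios within a library cannot reach a p below 0.1 with 3 libraries a group.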

Other observations

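Cda, the cytidine deaminase, was too low for a test and stood at 0, 0.0509 and 0 FPKM in the controls and at 0.0359, 0.267 and 0.290 FPKM in irradiated replicates 1, 2 and 3. Ak4, a mitochondrial adenylate kinase, had a log2 fold change of 1.33 (limma adjusted p = 0.0228), but -0.35 under quantile normalization (limma adjusted p = 0.457), and missed the threshold under median-ratio scaling, with the replicate block and without control replicate 1, 2 or 3 (limma adjusted p from 0.0509 to 0.0834).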
